A study of Mus musculus with 7 samples.

Results

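Purinergic and adenosine signaling in bone marrow-derived dendritic cells (BMDCs) was followed through 9 genes of 28666 in the deposited table. They were taken by gene name: the ATP-gated channels P2rx4 and P2rx7, the nucleotide receptors P2ry6 and P2ry14, the enzymes Entpd1, Nt5e and Ada, and the adenosine receptors Adora2a and Adora2b. Their RNA-seq values were compared between 3 immature and 4 mature libraries. Both groups came from bone marrow of female C57BL/6 mice aged 6 to 8 weeks, differentiated with GM-CSF (20 ng/ml) and IL-4 (10 ng/ml) over 7 days. All cells had shared a Transwell system with the mouse colon carcinoma line MC38, and the groups were then separated by flow sorting on maturity. The results text of the study gives 24 h of DON, a glutamine antagonist used at 5 µM, for both groups, whereas a legend names DMSO or DON. The study also describes its DMSO co-cultures with less glutamine in the medium than its DON co-cultures. The groups are labelled by maturity alone, so which agent and glutamine supply each library's cells had received is not settled here. Such cultures grown with GM-CSF hold macrophage-like as well as dendritic cells. The study's methods state in general that data came from independent biological experiments, but neither they nor the labels say which culture or mouse each library came from. The p-values measure only the spread between these libraries, which may be technical.

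Extracellular ATP is released by stressed, dying and activated cells and is sensed by P2X channels, which let cations into the cell, and by P2Y receptors, which couple to G proteins and also bind ADP, UTP, UDP or UDP-sugars. On the cell surface CD39, the product of Entpd1, removes phosphates from ATP and ADP to give AMP, and CD73, the product of Nt5e, turns AMP into adenosine. Adenosine acts on the receptors encoded by Adora2a and Adora2b, which raise cyclic AMP in the cell and are known for damping inflammatory responses of DCs, and adenosine deaminase turns it into inosine.

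Libraries held 54846746 to 67973086 counts. Expression is given as CPM, the counts of a gene relative to the library total corrected by TMM factors, and levels of different genes are compared as the deposited FPKM, which allows for gene length. All 6 maturation markers rose in mature BMDCs (Cd80, Cd86, Cd40, Ccr7, Fscn1 and Cd83), with a summed FPKM of 145 to 157 in immature and 1816 to 1969 in mature libraries. A rise was to be foreseen, since the cells were sorted on maturity. In tumors the study gates mature DCs by CD80 and CD86. If the sort used these, which is not stated, the rise of Cd80 and Cd86 follows from it. All 6 macrophage markers fell (Adgre1, Mertk, Fcgr1, Csf1r, C1qa and Mrc1), from a summed FPKM of 287 to 292 to one of 59.1 to 65.6, and none was at 0. The mature libraries were not alike. Summed FPKM of 8 cardiac muscle markers, all called higher, was 262 to 281 in mature replicates 2, 3 and 4 but 12.3 in mature replicate 1 and 1.82 to 1.97 in immature libraries. In mature replicate 1 Tnni3 alone made up 11.2 of the 12.3, and each other marker was at most 0.38 FPKM. Mature replicate 3 differed from the other mature libraries by a median chi-square per gene of 17.7 to 25.6, against 4.26 to 5.27 among those. Each of the 9 genes is therefore also given from mature replicate 1 alone against the immature libraries, where the lone library is assumed to vary as the others do, and results were refitted without mature replicate 3.

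Mature BMDCs had less RNA of most of these genes and more of Adora2a. Of the 9 genes, 7 passed the criteria (77.8%), a log2 fold change of 1 or more in size and an adjusted p under 0.05, as did 23.1% of the 17461 genes tested, by edgeR's quasi-likelihood test with Benjamini-Hochberg adjustment. Adora2a rose, where 13.2% of all genes tested were called higher. P2rx7, P2ry6, P2ry14, Entpd1, Nt5e and Adora2b fell (66.7% of the 9), where 9.95% of all genes were called lower. P2rx4 and Ada did not pass. Without the fold criterion 8 of the 9 passed, all but Ada, as did 46.1% of all genes tested. The median log2 fold change of the 9 genes was -1.69, and that of all genes tested was 0.055. The 9 genes were chosen with earlier results of these data known. Their shares beside those of all genes are therefore a description, not a test. The groups did not overlap in any library for 8 of the 9 genes, Ada being the exception, which held for 52.1% of all genes tested. In 7 of them the mature libraries were the lower ones, which held for 26.7%. The same 7 genes passed with mature replicate 1 alone and without mature replicate 3. In bulk RNA, fewer cells that express a gene and less of its RNA per cell cannot be told apart, and the fall of the macrophage markers moved with the falls described here. Its part in them was not tested.

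**Figure D1:**
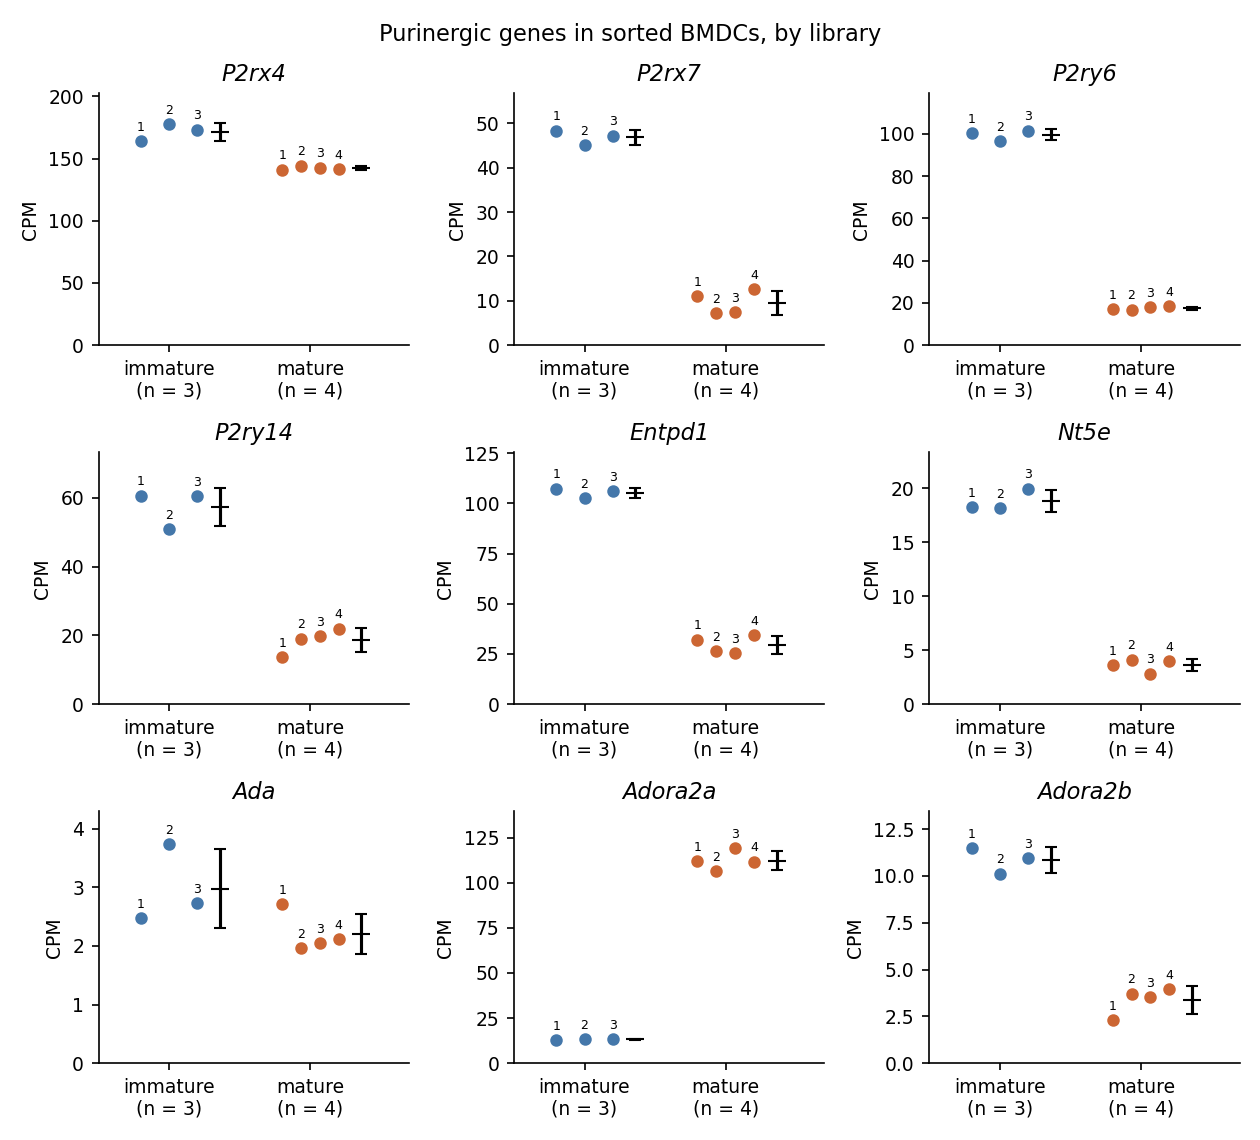
CPM (linear axis from 0) of each of the 9 genes, 1 point per library numbered by replicate, with bars for the mean ± SD of immature (n = 3) and mature BMDCs (n = 4). The 4 mature libraries lie above all immature libraries for Adora2a, overlap with them for Ada, and lie below them for the other genes.

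Both P2X channels are encoded on chromosome 5 (GRCm38), on the plus strand and next to each other, with 23246 bp and no gene of the table between them, but their RNA differed unequally between the groups. P2rx7 (ENSMUSG00000029468, chr5:122643911-122684297) encodes the ATP channel that opens only at high ATP and is known for starting inflammasome assembly. It measured 48.4, 45.1 and 47.3 CPM in immature replicates 1 to 3 and 11.0, 7.26, 7.41 and 12.6 CPM in mature replicates 1 to 4. Every mature library was far below every immature one, and mature replicates 2 and 3 were the lowest. The means were 46.9 ± 1.67 (SD, n = 3) and 9.57 ± 2.67 CPM (SD, n = 4). P2rx7 was thus 4.90-fold lower, with a log2 fold change of -2.29 (SE 0.20, edgeR adjusted p = 2.5e-05). Mature replicate 1 alone gave -2.07. P2rx4 (ENSMUSG00000029470, chr5:122707544-122729738) encodes a channel that responds to lower ATP and is found largely in lysosomes of myeloid cells. It measured 164, 178 and 173 CPM in immature replicates 1 to 3 and 141, 144, 143 and 142 CPM in mature replicates 1 to 4. The groups did not overlap, yet lay close together. The log2 fold change of P2rx4 was -0.27 (SE 0.068, 95% CI -0.42 to -0.11, edgeR adjusted p = 0.0110), short of the fold criterion. Its adjusted p ran from 0.00155 to 0.0955 over the alternatives, and it was -0.32 relative to the median of all genes. Mature replicate 1 alone gave -0.26. The FPKM of P2rx4 over that of P2rx7 was 2.88 to 3.35 in immature and 9.57 to 17.0 in mature libraries.

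The promoters of these neighbours are shown because the genes lie side by side and differed in their change. They are RefSeq sequences on GRCm38.p6, 250 bases before to 50 bases after a transcript start, available for 7 of the 9 genes, with 12 starts in all. Each window was searched on both strands for the hypoxia factor core ACGTG, the core of the cAMP response element TGACG, the AP-1 motif TGANTCA, the PU.1 core GAGGAA and the NF-kB consensus. These letters were found in 19.6%, 20.8%, 7.81%, 28.3% and 4.51% of 32851 promoters of the same length, in that order. Capitals mark a match, and none of the 5 motifs contains another, though TGACG and ACGTG can share letters. The P2rx7 window is chr5:122643677-122643976 and the P2rx4 window is chr5:122707294-122707593, both on the plus strand.
P2rx7 promoter, 5′ to 3′: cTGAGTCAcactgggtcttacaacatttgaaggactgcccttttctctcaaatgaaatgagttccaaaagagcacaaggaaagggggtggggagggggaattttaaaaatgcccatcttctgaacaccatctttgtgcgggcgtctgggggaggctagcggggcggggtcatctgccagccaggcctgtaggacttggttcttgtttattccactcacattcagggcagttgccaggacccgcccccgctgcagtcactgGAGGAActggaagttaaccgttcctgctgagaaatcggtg
P2rx4 promoter, 5′ to 3′: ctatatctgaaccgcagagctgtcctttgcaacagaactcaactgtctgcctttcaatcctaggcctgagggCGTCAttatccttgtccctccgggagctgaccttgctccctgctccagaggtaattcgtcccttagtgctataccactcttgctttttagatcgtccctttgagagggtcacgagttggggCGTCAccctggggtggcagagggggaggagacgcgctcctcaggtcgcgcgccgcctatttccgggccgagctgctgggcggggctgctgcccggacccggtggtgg
The P2rx7 window held an AP-1 match at -249 and a PU.1 match at 11 bases, counted from the start. The P2rx4 window held neither, and had matches to the cAMP element core, read on the other strand as CGTCA, at -178 and -57. P2rx4 had 18 CpG dinucleotides and a GC content of 60.3%, P2rx7 8 and 53.3%, and the median over all promoters was 7 and 52.7%. A match is a description of the letters only. The second start of P2rx7 held a PU.1 match alone.

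Both P2Y receptors fell in mature BMDCs. P2ry6 (ENSMUSG00000048779, chr7:100937630-100974649, minus strand) encodes a UDP receptor coupled to calcium release, known in macrophages for promoting uptake of particles. It measured 100.4, 96.6 and 101.5 CPM in immature replicates 1 to 3 and 17.1, 16.7, 17.9 and 18.3 CPM in mature replicates 1 to 4. Libraries of each group were close to each other and the groups were far apart. P2ry6 fell by 2.51 on the log2 scale (SE 0.076, edgeR adjusted p = 1.8e-07), with means of 99.5 ± 2.59 (SD, n = 3) and 17.5 ± 0.741 CPM (SD, n = 4), and mature replicate 1 alone gave -2.52. P2ry14 (ENSMUSG00000036381, chr3:59113855-59132462, minus strand) encodes the receptor for UDP-glucose. It measured 60.6, 50.9 and 60.5 CPM in immature replicates 1 to 3 and 13.7, 19.0, 19.7 and 21.97 CPM in mature replicates 1 to 4. Mature replicate 1 was the lowest and no mature library reached an immature one. P2ry14 fell by 1.63 on the log2 scale (SE 0.16, edgeR adjusted p = 4.9e-05), a 3.09-fold lower mean, and mature replicate 1 alone gave -2.04. P2ry14 lies within Med12l, a gene of the opposite strand with 17 to 116 counts per library. The libraries mark strand, but the counting's strand setting is not given in the sources used here, so reads of the overlap could be assigned to either. P2ry14 has 4 RefSeq starts, of which the most upstream lies outside the span of the gene in the table. The second is shown because it lies inside the span and holds 2 of the motifs, an AP-1 match at -144 and a PU.1 match, read as TTCCTC, at -29. Its window is chr3:59131279-59131578, given here along the minus strand.
P2ry14 promoter, second start, 5′ to 3′: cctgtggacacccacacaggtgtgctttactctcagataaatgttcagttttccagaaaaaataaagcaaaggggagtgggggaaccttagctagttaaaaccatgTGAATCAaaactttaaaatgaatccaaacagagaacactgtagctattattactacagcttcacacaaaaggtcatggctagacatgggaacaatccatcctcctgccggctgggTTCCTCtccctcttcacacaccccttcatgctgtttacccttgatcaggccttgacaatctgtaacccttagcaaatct

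The surface enzymes that make adenosine fell, while Ada was at a low level and did not pass the test. Entpd1 (ENSMUSG00000048120, chr19:40612366-40741602, plus strand), encoding CD39, measured 107, 102 and 106 CPM in immature replicates 1 to 3 and 32.2, 26.4, 25.3 and 34.4 CPM in mature replicates 1 to 4. No mature library came near an immature one. Entpd1 averaged 105 ± 2.50 (SD, n = 3) and 29.6 ± 4.40 CPM (SD, n = 4), its log2 fold change was -1.83 (SE 0.12, edgeR adjusted p = 4.5e-06), and mature replicate 1 alone gave -1.68. Gm8783, a low gene on the same strand inside Entpd1, averaged 2.79 CPM in immature and 1.47 CPM in mature libraries and could share its reads. Nt5e (ENSMUSG00000032420, chr9:88327197-88372092, plus strand), encoding CD73, measured 18.2, 18.2 and 19.9 CPM in immature replicates 1 to 3 and 3.59, 4.10, 2.82 and 3.95 CPM in mature replicates 1 to 4. The groups were again apart, with mature replicate 3 the lowest. Nt5e fell by 2.38 on the log2 scale (SE 0.15, edgeR adjusted p = 4.1e-06), 5.19-fold lower, and mature replicate 1 alone gave -2.36. The FPKM of Entpd1 over that of Nt5e was 8.21 to 9.11 in immature and 9.89 to 14.3 in mature libraries.

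Ada (ENSMUSG00000017697, chr2:163726584-163750239, minus strand), encoding adenosine deaminase, measured 2.47, 3.74 and 2.73 CPM in immature replicates 1 to 3 and 2.71, 1.96, 2.04 and 2.11 CPM in mature replicates 1 to 4. Mature replicate 1 lay within the immature range, so the groups overlapped. The log2 fold change of Ada was -0.43 (SE 0.23, 95% CI -0.95 to 0.088, edgeR adjusted p = 0.156), and its adjusted p was 0.0969 to 0.823 over the alternatives. Mature replicate 1 alone gave -0.11, the value nearest to 0 of these. The 95% CI with all libraries spans no difference and a fall of nearly 1 on the log2 scale. Because Nt5e fell, the FPKM of Ada over that of Nt5e was 0.583 to 0.884 in immature and 2.04 to 3.25 in mature libraries.

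The promoter at the second start of Entpd1 is shown because it held the most matches of the 12, with PU.1 matches at -235 and -227 and the cAMP element core at -183. Its window is chr19:40659520-40659819 on the plus strand.
Entpd1 promoter, second start, 5′ to 3′: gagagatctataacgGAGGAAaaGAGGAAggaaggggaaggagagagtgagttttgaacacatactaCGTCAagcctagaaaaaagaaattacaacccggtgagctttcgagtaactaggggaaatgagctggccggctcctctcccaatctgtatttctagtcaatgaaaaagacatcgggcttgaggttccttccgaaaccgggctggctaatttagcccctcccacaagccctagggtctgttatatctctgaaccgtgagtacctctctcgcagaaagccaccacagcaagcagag
The first start of Entpd1 held the cAMP element core alone, at -135. The windows of Nt5e, Ada and Adora2b, which had a GC content of 71.0%, 68% and 70.0%, held none of the 5 motifs. No window of the 12 held the hypoxia factor core or the NF-kB consensus, which says only that these letters are not in these windows.

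The adenosine receptors moved in opposite directions. Adora2a (ENSMUSG00000020178, chr10:75316877-75334784, plus strand) encodes the receptor that binds adenosine with high affinity. It measured 12.6, 13.4 and 13.3 CPM in immature replicates 1 to 3 and 111.8, 106, 119 and 111.5 CPM in mature replicates 1 to 4. All mature libraries were far above all immature ones. Adora2a rose, with a log2 fold change of 3.10 (SE 0.084, 95% CI 2.90 to 3.29, edgeR adjusted p = 1.3e-07), 8.55-fold higher, and mature replicate 1 alone gave 3.12. It ranked 748 among the 17461 genes tested, from the largest rise down. Adora2b (ENSMUSG00000018500, chr11:62248984-62266453, plus strand) encodes the related receptor that needs more adenosine. It measured 11.5, 10.1 and 11.0 CPM in immature replicates 1 to 3 and 2.29, 3.72, 3.54 and 3.95 CPM in mature replicates 1 to 4. The groups were apart and mature replicate 1 was the lowest. The log2 fold change of Adora2b was -1.69 (SE 0.20, edgeR adjusted p = 0.000156), 3.22-fold lower, and mature replicate 1 alone gave -2.22. The FPKM of Adora2a over that of Adora2b was 0.662 to 0.800 in immature and 17.1 to 29.6 in mature libraries, with mature replicate 1 the highest.

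**Figure D2:**
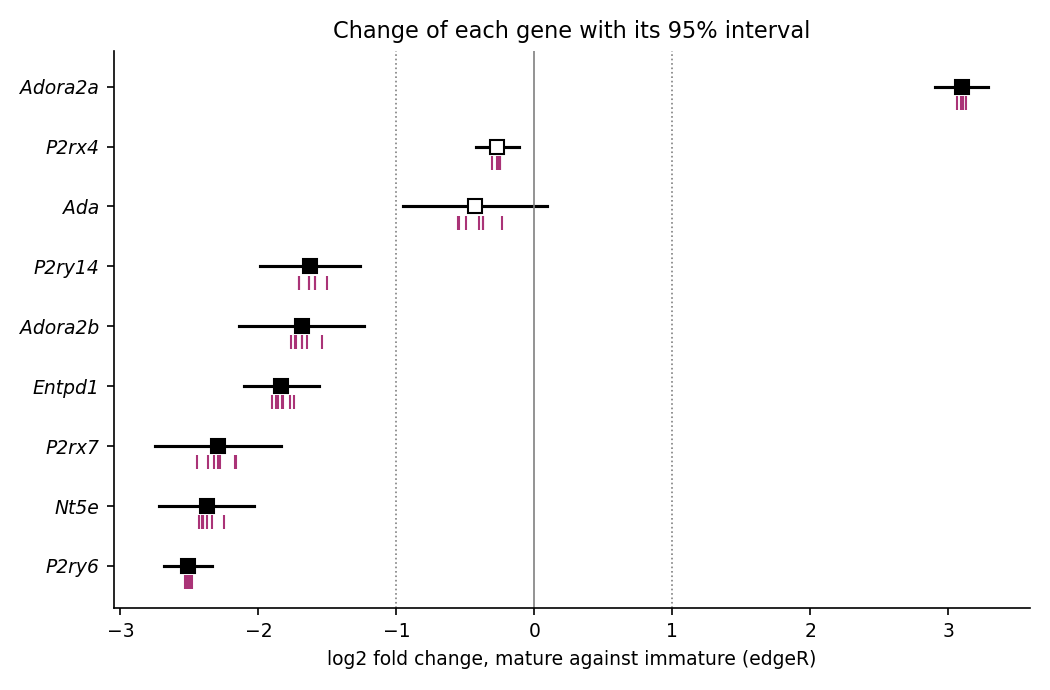
Log2 fold change of each of the 9 genes, mature over immature BMDCs (edgeR), as squares (filled where called) with bars for the 95% confidence interval, ticks for fits without 1 library and dotted lines at the fold criterion. Adora2a lies at 3.10, 6 genes lie between -2.51 and -1.63, and P2rx4 (-0.27) and Ada (-0.43) lie within the criterion.

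The order of the 9 genes by FPKM differed between the groups. In immature BMDCs P2ry6 was highest (median 30.1 FPKM, range 29.9 to 30.8), followed by P2rx4 (21.1), Entpd1 (16.4), P2rx7 (6.77), Adora2b (5.07), P2ry14 (4.67), Adora2a (3.71), Nt5e (1.89) and Ada (1.16). No neighbours in that order overlapped over the 3 libraries. In mature BMDCs Adora2a was highest (median 34.6 FPKM, range 34.2 to 35.2) and P2rx4 next (19.3, range 17.9 to 20.2). P2ry6 (5.70) and Entpd1 (5.11) followed with ranges that overlapped. Adora2b (1.83), P2ry14 (1.63), P2rx7 (1.48) and Ada (0.98) came next, each overlapping with its neighbour, and Nt5e was lowest (0.415, range 0.28 to 0.47). Adora2a thus went from the seventh place to the first, and these levels are a description of RNA, not of protein.

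**Figure D3:**
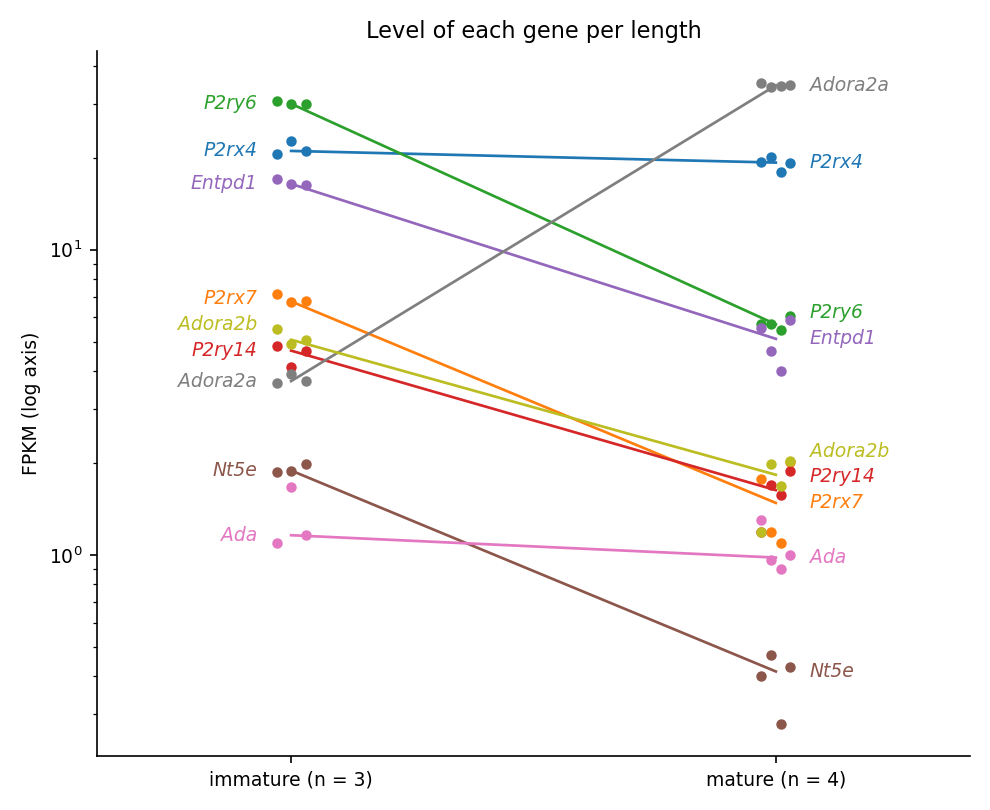
Deposited FPKM (log axis) of the 9 genes in immature and in mature libraries, 1 point per library, with lines joining the medians of each gene. P2ry6 leads in immature BMDCs (median 30.1) and Adora2a in mature BMDCs (median 34.6), while P2rx4 is second in both.

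The other genes of the pathway were read from 8 lists of 78 genes, of which 77 were in the table and 71 were tested (not P2rx2, P2ry4, Adora1, Enpp3, Ampd1 and Panx2). By the same criteria 32 passed (45.1%, against 23.1% of all genes tested), 13 higher and 19 lower, with a median log2 fold change of -0.21 over the 71. Of all genes tested 13.2% were called higher and 9.95% lower, which also applies to the counts of each list below. The lists hold no member described above. They too were chosen with earlier results of these data known, so their shares are a description.

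Of the other P2Y receptors 5 were tested and 4 passed, 1 higher and 3 lower (median log2 fold change -1.86). P2ry12 and P2ry13, ADP receptors that also lie within Med12l, fell by 2.95 and 2.76 on the log2 scale (edgeR adjusted p = 0.00105 and 1.4e-05). P2ry12 averaged 2.61 and 0.337 CPM and P2ry13 8.12 and 1.20 CPM in immature and mature libraries. Med12l, of the opposite strand, was itself lower in mature libraries (1.35 and 0.548 CPM, log2 fold change -1.29, edgeR adjusted p = 0.0449). The ATP and UTP receptor P2ry2 fell by 1.86 on the log2 scale, from 7.86 ± 0.806 to 2.16 ± 0.287 CPM (SD, n = 3 and 4, as in the values that follow). P2ry10, a receptor of lysophospholipids despite its name, rose from 11.4 ± 0.962 to 56.6 ± 8.10 CPM (log2 fold change 2.31, edgeR adjusted p = 3.3e-06), and its value is uncertain as far as it could share reads with the related gene P2ry10b, which was not examined. The ADP receptor P2ry1 measured 24.5 CPM in immature and 21.3 CPM in mature libraries and did not pass. Of the other P2X channels 4 were tested. P2rx5 rose from 24.9 ± 0.639 to 77.0 ± 6.42 CPM (log2 fold change 1.63, edgeR adjusted p = 2.0e-06), and P2rx1 fell from 4.02 ± 0.557 to 0.766 ± 0.355 CPM (log2 fold change -2.39, edgeR adjusted p = 0.000781). Adora3, the A3 receptor, which lowers cyclic AMP, fell from 6.09 ± 0.291 to 1.60 ± 0.131 CPM (log2 fold change -1.93, edgeR adjusted p = 2.1e-05).

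Of the other ectonucleotidases 10 were tested and 5 passed, 4 of them lower. Bst1 and Cd38, which cleave NAD outside the cell, went from 155 to 29.3 CPM and from 43.2 to 12.5 CPM, log2 fold changes of -2.41 and -1.79. Entpd3, a relative of CD39, fell from 5.15 to 0.485 CPM (log2 fold change -3.41), and Enpp1, which splits ATP to AMP and also degrades the STING ligand cGAMP, fell from 5.84 to 0.945 CPM (log2 fold change -2.62, edgeR adjusted p = 1.8e-05). Entpd2, a low gene that overlaps Npdc1 on the same strand, was higher (0.288 and 0.983 CPM, log2 fold change 1.76, edgeR adjusted p = 0.00935). Npdc1 was itself higher in mature libraries and above the level of Entpd2 (1.42 and 2.88 CPM, log2 fold change 1.02, edgeR adjusted p = 0.0144). With mature replicate 1 alone Entpd2 was at 1.23 and its call was lost (edgeR adjusted p = 0.220), while Entpd5 passed there as lower (-1.13, edgeR adjusted p = 0.000304) but not with all libraries (-0.77).

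Nucleoside transporters and enzymes of purines inside the cell had 18 genes tested, with 2 higher and 5 lower (median -0.52). The nucleoside transporters Slc29a1 and Slc28a2 fell by 1.34 and 2.07 on the log2 scale, from 55.9 to 22.1 and from 7.79 to 1.86 CPM. Xdh, xanthine dehydrogenase, which makes uric acid, fell from 203 ± 9.33 to 87.3 ± 14.9 CPM (log2 fold change -1.22, edgeR adjusted p = 0.000123). Ampd2, an AMP deaminase, rose from 139 to 325 CPM (log2 fold change 1.23), and Dpp4, the surface peptidase CD26 to which adenosine deaminase binds in humans, rose from 33.8 ± 1.10 to 117 ± 19.2 CPM (log2 fold change 1.79, edgeR adjusted p = 1.3e-05). Slc28a3 had 17 to 36 counts in immature libraries and 0 in each mature one, at least 8.92-fold lower against a floor of 3 counts per library. Ampd3 also passed as lower, but fell short of the fold criterion without immature replicate 1 (-0.97), mature replicate 1 (-0.93) or mature replicate 3 (-0.95). It overlaps Rnf141 of the opposite strand, which was more abundant and also lower in mature libraries (114 and 49.9 CPM, log2 fold change -1.19), against 20.8 and 10.2 CPM for Ampd3.

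Downstream of the adenosine receptors, 22 genes of cyclic AMP signaling were tested and 9 passed, 5 higher and 4 lower (median 0.066). Adcy6, an adenylyl cyclase, rose from 27.2 ± 2.19 to 416 ± 43.6 CPM, a log2 fold change of 3.93 (SE 0.12, edgeR adjusted p = 2.1e-07). The phosphodiesterase Pde4b rose from 41.1 to 286 CPM (log2 fold change 2.80) and Crem, a transcription factor of the cyclic AMP response, from 15.0 to 76.8 CPM (log2 fold change 2.35). The phosphodiesterases Pde8a and Pde3b fell by 1.69 and 1.23 on the log2 scale, and Adcy3 fell by 2.07, from 7.02 to 1.67 CPM. Adcy3 overlaps Cenpo of the opposite strand. Cenpo was more abundant and also lower in mature libraries (13.2 and 8.61 CPM, log2 fold change -0.62). Pde3b with mature replicate 1 alone gave -0.93, and Adcy7, also lower, gave -0.91 there and -0.93 without mature replicate 3, short of the fold criterion in each case. Calls were also gained, of a different gene in each fit. Pde2a was gained with mature replicate 1 alone (log2 fold change 1.02, against 0.69 with all libraries). Rapgef4, with 0 to 6 counts in immature and 0 to 46 in mature libraries, was gained without mature replicate 1 (edgeR adjusted p = 0.0229). In that fit 6 genes of the list were called higher, against 5 with all libraries.

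Of 7 inflammasome genes linked to P2X7, 3 passed. Nlrp3, the sensor, fell from 89.7 ± 5.71 to 22.4 ± 3.59 CPM (log2 fold change -2.01, edgeR adjusted p = 4.6e-06), and Il18, a cytokine processed by caspase-1, rose from 1.37 ± 0.422 to 5.76 ± 1.60 CPM (log2 fold change 2.07, edgeR adjusted p = 0.000586). Il18 overlaps Bco2 of the opposite strand, which was at 0.679 and 2.25 CPM. Il1b measured 21.7, 21.0 and 33.9 CPM in immature replicates 1 to 3 and 29.5, 69.4, 88.4 and 75.0 CPM in mature replicates 1 to 4. Mature replicate 1 lay within the immature range, and only the other mature libraries lay above it. Il1b passed with all libraries (log2 fold change 1.36, edgeR adjusted p = 0.0125) but not with mature replicate 1 alone (0.23, edgeR adjusted p = 0.498), nor without immature replicate 1 or 2 (edgeR adjusted p = 0.0534 and 0.0570). Pycard lay at -0.998, just short of the criterion, and passed with mature replicate 1 alone (-1.22) and without immature replicate 1 (-1.06), immature replicate 2 or mature replicate 3 (-1.19).

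Among 4 tested genes of nucleotide release only Gja1, the gap junction protein connexin 43, passed (log2 fold change 1.38, edgeR adjusted p = 0.0156). It measured 2.64, 2.34 and 2.77 CPM in immature replicates 1 to 3 and 2.67, 7.72, 8.81 and 7.77 CPM in mature replicates 1 to 4. Mature replicate 1 was at the immature level and the 3 mature libraries with high cardiac muscle markers were above it. The part of these markers' source in the value of Gja1 was not tested. With mature replicate 1 alone the log2 fold change of Gja1 was 0.071 (edgeR adjusted p = 0.868).

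**Figure D4:**
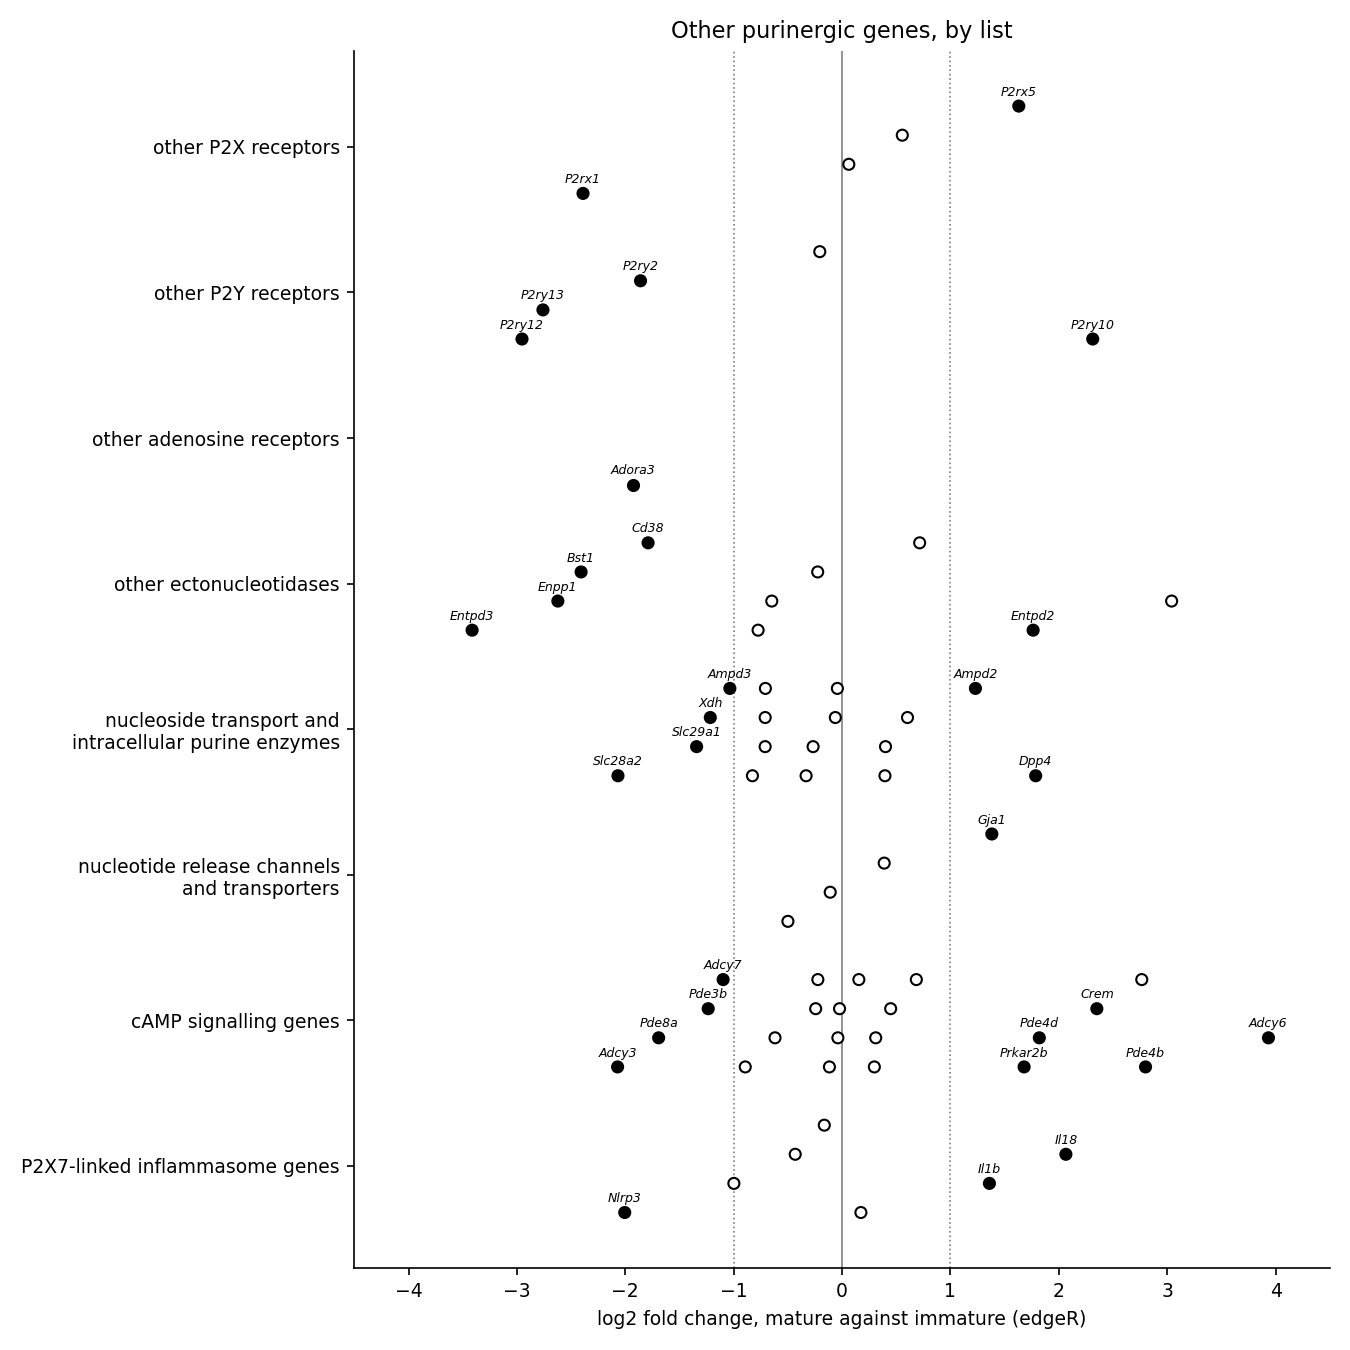
Log2 fold change of each tested gene of the 8 pathway lists, mature over immature BMDCs, with filled labelled points for genes past the criteria open points for the rest and dotted lines at the fold criterion. Slc28a3, at 0 in every mature library, is outside the plotted range. Most called receptors and ectonucleotidases lie below 0. Of the called cyclic AMP genes 5 lie above 0, among them Adcy6, Pde4b and Crem, and 4 lie below it.

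Genes with the most similar pattern were sought for the largest rise and the largest fall, by Pearson's r of log2 CPM over the 7 libraries among 9920 genes. For Adora2a these were Tes (r = 0.9997), Apobec3 and Cd83, a maturation marker that averaged 93.3 and 764.9 CPM. An r over 0.99 was common and held for 351 genes. For P2ry6 they were Aldh2 (r = 0.9998), Csf1r, a macrophage marker that averaged 732 and 119 CPM, and Cd200r4, among 550 genes over 0.99. With libraries in 2 groups such values follow mainly from the difference between groups, and they are given as a description.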

How the data were processed

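RNA of flow-sorted immature (3 libraries) and mature BMDCs (4 libraries) was analysed, and groups and replicate numbers came from the sample labels. The authors deposited raw counts, as whole numbers, for every gene and library, together with FPKM values, in which gene length and library total are divided out. The submitters' processing notes name cutadapt 1.9, HISAT2 2.2.1, StringTie 2.1.6, edgeR, DESeq2 and the build mm9. The counting program and its strand setting are not given in the sources used here. Start and end of 25842 of the 28588 genes shared with GENCODE M21 (90.4%) were identical to it, as were 7 of the 9 genes reported (not P2rx7 and P2ry14), so coordinates are given as GRCm38.

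The counts went into edgeR 4.0.16 (R 4.3.3): its filter on low counts (17461 genes left), TMM normalization and a quasi-likelihood F test over the 7 libraries, with Benjamini-Hochberg adjustment over all genes tested. The standard error is the log2 fold change divided by the square root of F. The criteria (log2 fold change of 1 or more in size, adjusted p under 0.05) passed 4037 genes. The 9 genes, the pathway lists and the marker lists were chosen with earlier results of these data known. Named from a list were all genes past the criteria where there were at most 5, and otherwise the 3 with the largest F in each direction. Genes whose call changed with the libraries used (Ampd3, Adcy7, Pycard, Entpd5, Pde2a and Rapgef4), Slc28a3 and P2ry1 were named after their values were seen. Genes most similar in pattern had a mean of at least 5 CPM.

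The neutrophil (S100a8 lower), mast cell (Kit higher), T or NK cell (Cd8a higher) and B cell lists were not given in the report. Nor were the endothelial (Cdh5, Tek and Cldn5 higher) and fibroblast lists (Col1a2, Dcn and Lum higher). Each of these lists had a summed FPKM of at most 5.68 in every library. The endothelial and fibroblast genes named were at or near the immature level in mature replicate 1 and higher in mature replicates 2, 3 and 4. Dcn, for example, was at 0.09 FPKM in mature replicate 1 and at 1.36, 1.31 and 1.32 in the others. The cardiac muscle markers were also highest in those libraries. In the dendritic cell list Flt3 and Zbtb46 were called higher. Itgax, H2-Ab1, Cd74 and Ciita were not called (log2 fold changes -0.41, 0.056, 0.41 and 0.68). Its summed FPKM, mostly that of Cd74, was 3987 to 4130 in immature and 4920 to 6695 in mature libraries. The colon carcinoma epithelium list (Epcam higher) had 17.3 to 21.3 and 13.8 to 21.7. The erythroid or platelet list (Hbb-bs and Hba-a1 higher, Pf4 and Ppbp lower) had 102 to 127 and 20.0 to 45.8.

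Alternatives were DESeq2 1.42.0, RLE and upper-quartile scaling, no filter, at least 1 CPM in 3 libraries, limma 3.58.1 on log2(FPKM + 1) or log2(FPKM + 0.1) where FPKM reached 1 in 3 libraries, the replicate number as a block, each library left out, mature replicate 1 alone, and no fold criterion. On simulated counts with 200 genes changed 4-fold, 188 (94%) were recovered by edgeR, 195 (97.5%) by DESeq2 and 163 (81.5%) by limma. False calls numbered 7 of 16929 genes tested, 31 of 17461 and 3 of 11501. The changed genes were drawn only from those above a minimum mean count, so recovery of low genes was not measured. The simulation modelled no deviating library and no cardiac muscle RNA in part of a group. Its 200 changed genes were split equally between rises and falls. In the data 23.1% of the genes tested passed, and 57.0% of these were higher. False calls under so wide a change were not measured. From sampling noise alone the median chi-square would be 0.455 per gene, and every pair of libraries in a group exceeded it, so none was a copy. Floors (3 counts) cover counting error only, since PCR copies of a molecule are not told apart. Python 3.11.15, pandas 2.3.3 and matplotlib 3.10.9 were used for sequences and figures.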

Additional observations from a re-analysis of the deposited data

Results flagged for a closer look

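Of 52 sets of 4 mature values checked (genes, ratios and marker sums of the report), 7 had a library whose gap to its nearest neighbour, as a share of the whole range, was over Dixon's 95% critical value, where chance gives about 1 in 20 sets. None was the CPM of the 9 genes. Mature replicate 3 stood apart in 4 sets. It was high for P2rx5 (86.6 CPM against 73.1 to 74.4, a share of 0.903), Il18 (8.13 CPM against 4.75 to 5.26, 0.848) and the maturation markers (summed FPKM 1969 against 1816 to 1831, 0.902), and low for Xdh (64.9 CPM against 93.8 to 95.4, 0.950). Mature replicate 1 was low for Bst1 (17.7 CPM against 32.1 to 33.9, 0.887) and for the cardiac muscle markers (summed FPKM 12.3 against 262 to 281, 0.931). Mature replicate 2 had the lowest Entpd1 over Nt5e ratio (9.89 against 13.7 to 14.3, 0.856).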

How the results depend on the processing

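The 9 genes kept their direction and their call under all 16 alternatives that kept the fold criterion, with 7 passing in each. Without that criterion P2rx4 passed as well. Leaving out 1 library gave log2 fold changes of 3.06 to 3.13 for Adora2a, -2.53 to -2.48 for P2ry6 and -1.71 to -1.50 for P2ry14. The number of all genes past the criteria was 4037, and 1768 with limma on log2(FPKM + 1), 2561 with log2(FPKM + 0.1) and 8053 without the fold criterion. The first 2 understate changes of low genes and test fewer genes, and the last applies no fold criterion. Among nucleotide release genes 1 passed, and 0 with the replicate block, without immature replicate 1 or 2 (0 to 1 when a library was left out), or with mature replicate 1 alone, which was added for the lists after seeing the data. In those edgeR fits 2, 3, 2 and 1 of the list's genes had an unadjusted p under 0.05, in that order, and DESeq2 on all libraries called 1. The cause was not tested.

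Replicate numbers are shared between the groups. Deviations of same-numbered libraries correlated at 0.029, -0.0011 and 0.014, within the -0.048 to 0.036 of differently numbered ones. No shared deviation was thus seen. Values near 0 cannot tell whether same-numbered libraries came from 1 culture or mouse. With the replicate block 3616 genes passed, all calls of the 9 genes were kept, and Gja1 (1.15, edgeR adjusted p = 0.0586) and Entpd2 (1.47, edgeR adjusted p = 0.0605) no longer passed. Upper-quartile scaling moved the median of all genes by 0.11 on the log2 scale, over the same 17461 genes. With DESeq2 and no filter the median differed by 0.13 and 0.12, but was taken over 27808 genes, so the sets of genes differ. P2rx4 was at -0.16 with upper-quartile scaling, -0.25 with DESeq2 and -0.25 with no filter. Relative to the median of each fit it was -0.32, -0.43 and -0.42.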
